A study of Mus musculus with 285 samples.

Results

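Of 285 F2 mice whose skeletal muscle was profiled, 43 had high Egr1, 186 had low Egr1 and 56 lay between. The high and low mice were chosen by the deposited Egr1 value itself, so Egr1 differs between them by construction and was not tested. A value of at least 0.301 on the deposited scale, close to a 2-fold excess over the pool on a log10 scale, made a mouse high, and a value below 0 made it low. Everything else on the array was then compared between the high and the low mice.

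All groups share one design. Every mouse came from an intercross of F1 animals of C57BL/6J and C3H/HeJ, and the mice were female and male. Chow (4% fat) was fed up to 8 weeks of age and a Western-type diet (42% fat, 0.15% cholesterol) for the next 12 weeks, and the mice were killed at 20 weeks following 12 hours without food. Each mouse gave 1 array, with its RNA in Cy3 and a pool made from all samples in Cy5. The labels name neither the muscle taken nor the sex of single mice, and the ratio to a pool of the same tissue cannot show whether a tissue's defining markers are present or absent. Nothing in the labels but the mouse number, from 51 to 362, tells high and low mice apart.

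Egr1 encodes a zinc finger transcription factor and is an immediate early gene. Such genes are transcribed within minutes of a stimulus through factors that are already present in the cell, without new protein synthesis. Growth factors, contraction, stretch, injury and handling of tissue are known to induce them, and many of their products are transcription factors, feedback inhibitors of the signal, or secreted proteins. Serum response factor, which binds the CArG box, and CREB, which binds the cyclic AMP response element, are textbook activators of these genes.

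Promoters of 5 immediate early genes that were higher in the high-Egr1 mice are shown because each holds the letters of a CArG box (CC, then A or T at 6 positions, then GG) or a cyclic AMP response element (TGACGTCA), searched on both strands. Each runs from 250 bases before to 50 bases after a RefSeq start site in GRCm38.p6, reads 5′ to 3′ along the gene's strand, and has the matches in capitals. Egr2 has several listed start sites, and the one shown is chr10:67537619-67537918 on the plus strand, Dusp5 is chr19:53528895-53529194 on the plus strand, Zfp36 is chr7:28379179-28379478 on the minus strand, Btg2 is chr1:134079106-134079405 on the minus strand and Dusp1 is chr17:26508423-26508722 on the minus strand.
Egr2: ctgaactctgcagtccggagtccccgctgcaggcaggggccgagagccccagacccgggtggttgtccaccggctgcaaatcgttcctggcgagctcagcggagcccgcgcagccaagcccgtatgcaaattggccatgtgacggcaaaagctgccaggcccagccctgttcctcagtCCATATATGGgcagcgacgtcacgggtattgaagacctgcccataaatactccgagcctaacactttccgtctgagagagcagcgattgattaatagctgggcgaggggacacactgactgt
Dusp5: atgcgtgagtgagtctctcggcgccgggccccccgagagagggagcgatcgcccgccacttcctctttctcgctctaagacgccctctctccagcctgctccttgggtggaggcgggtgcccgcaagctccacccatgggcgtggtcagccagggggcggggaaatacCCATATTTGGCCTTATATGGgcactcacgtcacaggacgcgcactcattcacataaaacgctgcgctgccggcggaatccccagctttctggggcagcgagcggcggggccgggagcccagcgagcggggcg
Zfp36: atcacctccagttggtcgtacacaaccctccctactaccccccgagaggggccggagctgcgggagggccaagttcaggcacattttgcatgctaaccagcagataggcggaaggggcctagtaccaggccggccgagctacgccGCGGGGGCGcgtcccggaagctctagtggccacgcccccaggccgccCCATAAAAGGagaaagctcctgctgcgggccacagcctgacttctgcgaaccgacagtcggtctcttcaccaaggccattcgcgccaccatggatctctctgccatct
Btg2: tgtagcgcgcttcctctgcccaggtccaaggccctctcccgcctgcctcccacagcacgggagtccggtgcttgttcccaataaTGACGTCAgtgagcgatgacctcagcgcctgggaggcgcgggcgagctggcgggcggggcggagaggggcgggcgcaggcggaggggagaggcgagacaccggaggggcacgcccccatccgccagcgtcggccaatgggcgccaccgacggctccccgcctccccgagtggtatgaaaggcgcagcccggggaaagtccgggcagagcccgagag
Dusp1: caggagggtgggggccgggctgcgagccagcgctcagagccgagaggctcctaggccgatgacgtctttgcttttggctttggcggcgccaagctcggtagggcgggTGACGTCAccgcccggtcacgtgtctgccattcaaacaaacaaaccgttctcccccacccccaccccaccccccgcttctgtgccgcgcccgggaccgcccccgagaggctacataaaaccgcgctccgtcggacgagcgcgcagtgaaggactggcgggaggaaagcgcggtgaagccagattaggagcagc

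The CArG box of Egr2 began at position -72 from the start site and read CCATATATGG. Dusp5 held a pair next to each other, CCATATTTGG at -82 and CCTTATATGG at -72. Zfp36 held CCATAAAAGG at -58, and also an EGR site, GCGGGGGCG, at -105, which is in capitals too. The cyclic AMP response element began at -166 in Btg2 and at -143 in Dusp1. A promoter was listed for 32 of the 45 immediate early genes that differed between the groups. Of these 32 genes, 3 held a CArG box, which 1.63% of the 32851 promoters in the table held, and 4 held the cyclic AMP response element (Btg2, Dusp1, Dusp8 and Plk2), against 1.79%. An AP-1 site (TGACTCA or TGAGTCA) was in 2 of them (Csrnp1 and Il6), against 5.2%, and an EGR site (GCGTGGGCG or GCGGGGGCG) in 4 (Klf2, Klf4, Socs3 and Zfp36), against 3.47%. These counts are of genes with a match in any listed promoter, while the shares are of single promoters. The 32 genes had 39 promoters listed. Of the 39, 6 held a CArG box (some of them overlapping promoters of Egr2), 4 the cyclic AMP response element, 2 an AP-1 site and 4 an EGR site. A match is a run of letters, not evidence of binding.

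Egr1 ranged from 1.05 to 3.57 in the high mice, with a median of 1.65, from 0.00 to 0.97 in the mice between, with a median of 0.35, and from -2.16 to -0.01 in the low mice, with a median of -0.97, all as log2 ratios. The mouse just inside the high limit, number 296, had a deposited value of 0.317, and the mouse just below it, number 316, had 0.292. At the low limit the values were -0.00344 (mouse 246) and 0.00112 (mouse 239). Egr1 was measured by 1 probe with no missing value.

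High mice were not spread evenly over the mouse numbers. Numbers 71 to 90 held 12 high mice of 18, numbers 271 to 290 held 11 of 20, and numbers 291 to 310 held 9 of 20. The other 227 mice included 11 high ones, among them numbers 215, 248 and 258, and numbers 51 to 70 held none of 18. The labels do not say what the numbers stand for, so a stretch of 20 numbers, called a run below, is a place in an order and not a stated batch. The Y-linked gene Eif2s3y, which splits the mice into a high and a low class, was high in 24 and low in 19 of the high-Egr1 mice, and high in 112 and low in 74 of the low-Egr1 mice.

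**Figure D1:**
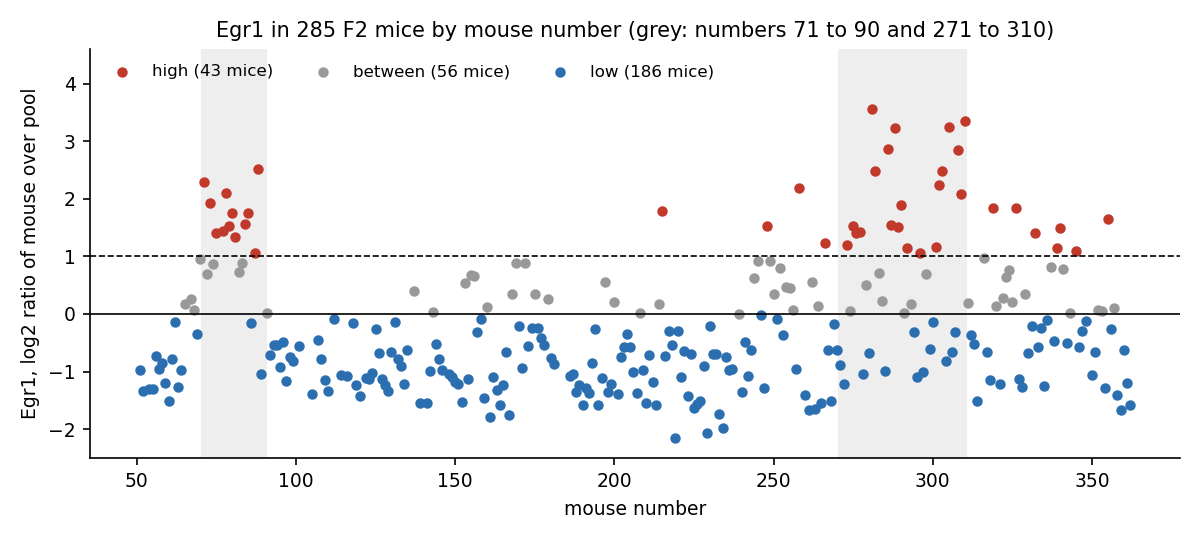
Egr1 of each of 285 mice, as a log2 ratio of mouse over pool (y axis), against the mouse number (x axis); the dashed line is the limit of the high group and the solid line that of the low group. High mice (red) crowd into numbers 71 to 90 and 271 to 310, shaded in grey, where 32 of the 43 lie.

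Because of this, each gene was compared in 4 ways, each with limma over all other features. The first set all 43 high mice against all 186 low mice. The second kept the same mice and compared them within runs of 20 numbers, by fitting the runs as a block. The third used only the 3 runs rich in high mice, 32 high against 15 low. The fourth left out numbers 51 to 90 and 271 to 310 and set the 11 remaining high mice against 157 low mice. A gene was called at a Benjamini-Hochberg adjusted p under 0.05. The third was chosen after the data were seen. Differences below are in log2 units, high minus low, with SE.

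Many other immediate early genes were higher in the high-Egr1 mice. Of 72 such genes listed, 65 were measured, and 44 of them were higher in the high-Egr1 mice, against 11.4% of the 11621 named genes. Only Egr3 was lower, against 16.1% of named genes. Within runs, 31 were higher, against 2.08% of named genes. In the 3 rich runs 25 were higher, against 0.783%, and outside these runs 28, against 3.75%. No member was called lower in these last 3 comparisons, where 0.559%, 0.0947% and 3.50% of named genes were. The median member differed by 0.38 on the log2 scale, against -0.01 for the median named gene, and by 0.31 within runs. In all 4 comparisons 58 named genes were higher, and 21 of these were on the list. The list was drawn up with earlier results of these data known.

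Rrad, a small GTP-binding protein that inhibits calcium channels in muscle, had the largest difference on the list. It ranged from -0.43 to 4.40 in the high mice, with a median of 1.43, and from -0.67 to 1.19 in the low mice, with a median of -0.18. In 25 of 43 high mice it lay above every low mouse, while 6 high mice lay below the low median. The difference was 1.53 ± 0.11 (SE), or 2.90-fold, with a limma adjusted p of 4.99e-27, and 1.86 ± 0.13 within runs.

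Btg2, an antiproliferative protein that promotes mRNA decay and the other marker gene of this comparison, ranged from -0.43 to 2.87 in the high mice, with a median of 1.22, and from -2.04 to 1.91 in the low mice, with a median of -0.32. The groups overlapped widely, since 7 high mice lay above every low mouse and 19 low mice were at least 2-fold above the pool. The difference was 1.41 ± 0.15, or 2.66-fold (limma adjusted p = 1.23e-14), and it was 1.56 ± 0.16 within runs and 1.54 ± 0.29 outside the rich runs.

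The Fos and Jun family, whose proteins pair to form the AP-1 transcription factor, was uneven. Fos was the steadiest: it ranged from 0.10 to 2.49 in the high mice, median 0.65, and from -0.76 to 0.52 in the low mice, median -0.16. All 43 high mice lay above the low median and 27 above every low mouse, and the difference was 0.91 ± 0.04 (limma adjusted p = 3.97e-49). Atf3, a stress-induced member of the wider family, ranged from -0.17 to 3.20 with a median of 1.20 in the high mice, and from -1.16 to 2.58 with a median of -0.15 in the low mice, a difference of 1.36 ± 0.10. Fosl1 differed by 1.02 ± 0.10, Jund by 0.36 ± 0.05 and Junb by 0.31 ± 0.04, all called. Jun (0.07 ± 0.05), Fosl2 (-0.01 ± 0.02) and Maff (-0.06 ± 0.04) were not called in any of the 4 comparisons.

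The EGR and NR4A families were uneven too. Egr2, a close relative of Egr1, ranged from -0.20 to 2.05 in the high mice, median 1.01, and from -2.05 to 1.45 in the low mice, median -0.18. It was higher by 1.19 ± 0.11 (limma adjusted p = 7.84e-20), with 42 of 43 high mice above the low median. Egr4 differed by -0.02 ± 0.05 and was not called. Egr3 was lower by -0.15 ± 0.04 with all mice, and its difference within runs was 0.00374. Of the orphan nuclear receptors, which contraction and cyclic AMP are known to induce, Nr4a2 was higher by 0.40 ± 0.11, and by 0.76 ± 0.21 outside the rich runs, and Nr4a3 was not called (-0.05 ± 0.02). Nr4a1 was not called over all mice (0.13 ± 0.10) and was called within runs, at 0.43 ± 0.11 (limma adjusted p = 0.0138).

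Ier2, a short nuclear protein of the immediate early class, ranged from 0.11 to 1.57 in the high mice and from -0.84 to 0.57 in the low mice, with medians of 0.62 and -0.16. All 43 high mice lay above the low median, 24 lay above every low mouse, and the difference was 0.86 ± 0.05 (limma adjusted p = 3.31e-39). Its relatives Ier5 (0.80 ± 0.09) and Ier3 (0.34 ± 0.06) were higher as well, and outside the rich runs Ier3 was not called (0.17 ± 0.11). Myc, the growth-promoting transcription factor, differed by 0.91 ± 0.08, and Csrnp1 by 0.83 ± 0.09. Among other factors, Klf6 (0.44 ± 0.06), Klf2 (0.58 ± 0.09) and Klf4 (0.24 ± 0.09) were called, and of these Klf6 alone was called within runs. Klf10 (0.02 ± 0.07) and Srf itself (-0.04 ± 0.04) were not called.

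Genes for feedback inhibitors of these signals were part of the set. Of 13 measured, 9 were higher over all mice and 5 within runs, against 11.4% and 2.08% of named genes. Socs3, an inhibitor of cytokine receptor signalling, ranged from -0.32 to 2.78 in the high mice, median 0.79, and from -0.65 to 0.90 in the low mice, median -0.17. It was higher by 1.06 ± 0.07 (limma adjusted p = 2.61e-32), and 19 high mice lay above every low mouse. The MAP kinase phosphatases Dusp1 and Dusp5 differed by 0.71 ± 0.07 and 0.60 ± 0.06, and Sik1, a kinase that damps CREB signalling, by 0.70 ± 0.16. Outside the rich runs Dusp5 differed by 0.30 ± 0.08 and Sik1 by 1.12 ± 0.27, both called. The mRNA decay factor Zfp36 differed by 0.52 ± 0.07. Dusp1, Dusp5, Sik1 and Zfp36 were all called within runs too.

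Genes for secreted and growth-related proteins made up the largest sublist, and 14 of its 18 measured members were higher over all mice and 9 within runs, against 11.4% and 2.08% of named genes. The matricellular protein genes Ccn2 and Ccn1 differed by 1.12 ± 0.11 and 0.87 ± 0.08, and outside the rich runs Ccn1 differed by 0.57 ± 0.12. Arc, best known as a synaptic activity gene, ranged from -0.18 to 3.61 in the high mice and from -0.75 to 1.62 in the low mice, with medians of 1.21 and -0.04, a difference of 1.12 ± 0.09. The cytokine gene Il6 differed by 0.58 ± 0.08 and the stress-response gene Gadd45b by 0.48 ± 0.08. Of the 11621 named genes, 0% had every high mouse above every low mouse, so each gene here overlaps between the groups.

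**Figure D2:**
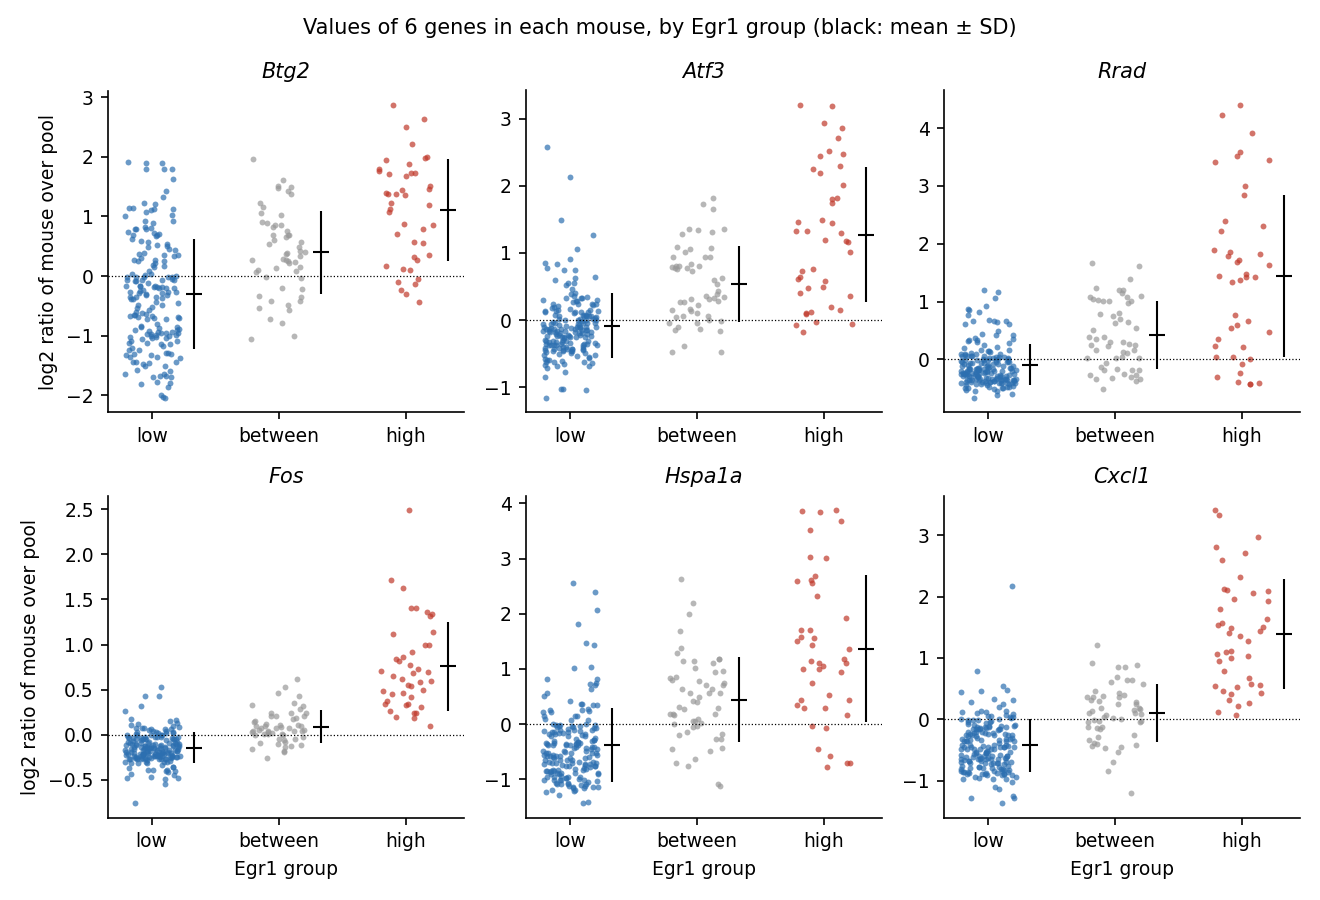
Log2 ratio of mouse over pool (y axes) of 6 genes in every mouse, by Egr1 group (x axes: 186 low, 56 between and 43 high mice), with mean ± SD in black. Fos and Cxcl1 have all 43 high mice above the low median, while Btg2, Rrad and Hspa1a have high mice that reach down among the low ones.

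**Figure D3:**
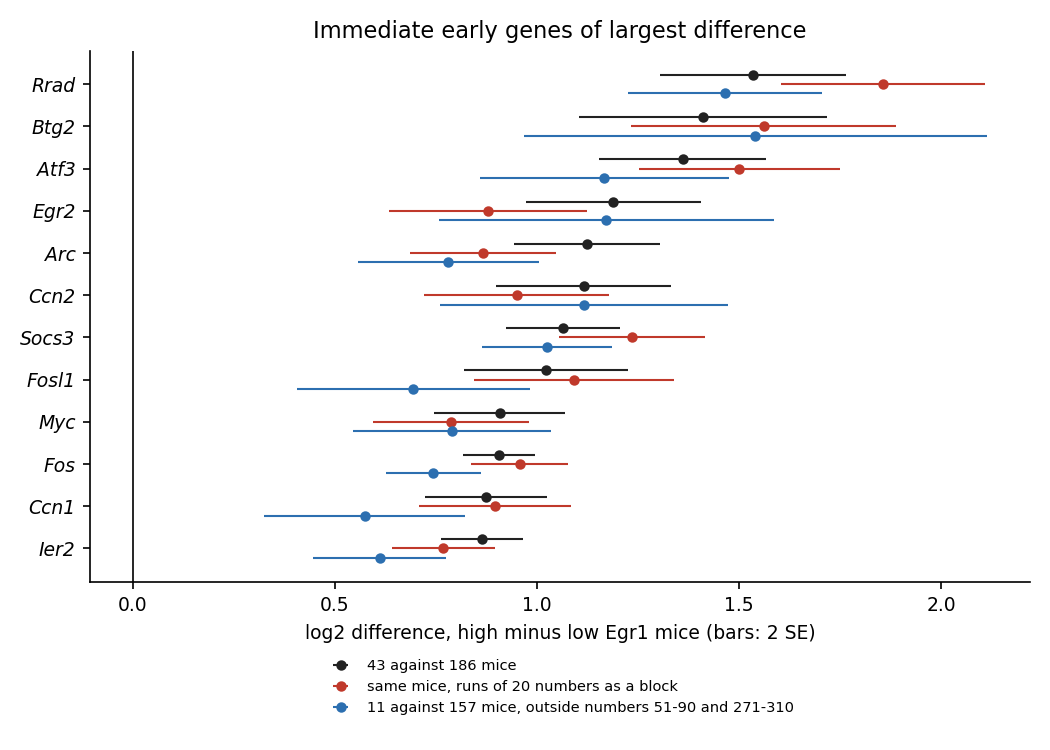
Log2 difference of high minus low Egr1 mice (x axis; bars are 2 SE) for the 12 immediate early genes with the largest differences, from Rrad at 1.53 to Ier2 at 0.86 over all mice. All 12 lie above 0 over all mice (black), with runs of 20 numbers as a block (red) and outside numbers 51 to 90 and 271 to 310 (blue).

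Chaperones and chemokines were among the genes off the list with the largest differences. Hspa1a, the inducible heat shock protein 70, ranged from -0.77 to 3.87 in the high mice, median 1.15, and from -1.43 to 2.55 in the low mice, median -0.50. It was at least 2-fold above the pool in 27 of 43 high and 8 of 186 low mice, and the difference was 1.75 ± 0.14 (limma adjusted p = 1.54e-24), or 1.96 ± 0.17 within runs. Its co-chaperone Dnajb1 differed by 1.31 ± 0.09 and 1.28 ± 0.12 within runs, and Hsp90aa1 by 0.58 ± 0.07 and 0.43 ± 0.08. Of 11 heat shock genes measured, 9 were higher over all mice, 5 within runs and 2 outside the rich runs, against 11.4%, 2.08% and 3.75% of named genes, with a median of 0.28 over all mice and 0.08 outside. Hsp90aa1 was not called outside these runs (0.18 ± 0.12).

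Cxcl1, a chemokine that attracts neutrophils, followed Egr1 closely. It ranged from 0.07 to 3.41 in the high mice, median 1.37, and from -1.37 to 2.18 in the low mice, median -0.46. It was at least 2-fold above the pool in 28 of 43 high mice and in 1 of 186 low mice, and the difference was 1.82 ± 0.09, or 3.52-fold (limma adjusted p = 3.48e-47), and 1.58 ± 0.12 within runs. Cxcl10, a chemokine best known as interferon-induced, differed by 1.76 ± 0.13 and 1.46 ± 0.15 within runs. Of 14 genes listed for NF-kB and cytokine signalling, 7 were higher over all mice and 6 within runs, against 11.4% and 2.08% of named genes, with a median of 0.18 over all mice. They included Bcl3 (0.97 ± 0.11) and Ccl7 (0.86 ± 0.13), and outside the rich runs Ccl7 was not called (0.54 ± 0.21). The interferon list had 2 of 10 members higher and 1 lower over all mice, near the 11.4% and 16.1% of named genes. Within runs 2.08% of named genes were higher and 0.559% lower, and no member of the interferon list was called. Of 7 neutrophil markers none was called over all mice or within runs, against these same shares, with a median difference of -0.01. Of 13 macrophage markers 5 were higher and 1 lower over all mice, against 11.4% and 16.1% of named genes. None of the 13 was called within runs, against 2.08% and 0.559%. The largest macrophage difference was that of Cd14 at 0.30 ± 0.05, then 0.18 ± 0.07 within runs. Outside the rich runs 2 of the 13 were called lower, C1qa (-0.57 ± 0.15) and Cd68 (-0.21 ± 0.07), against 3.50% of named genes, and the median was -0.18, while over all mice it was 0.16.

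Genes that sense strain in muscle gave a different picture over all mice and within runs. Ankrd1, an ankyrin repeat protein of the sarcomere induced by stretch and injury, had the largest difference of any named gene past the threshold with the same sign within runs, 2.08 ± 0.23 (limma adjusted p = 2.29e-14), and 1.51 ± 0.27 within runs, and the difference of Ankrd1 outside the rich runs was 1.26 ± 0.37. It ranged from -1.80 to 5.02 in the high mice, median 0.98, and from -2.58 to 4.30 in the low mice, median -1.17, so that 17 low mice were at least 2-fold above the pool. Xirp1, a repair protein of the sarcomere, differed by 0.93 ± 0.12 and by 1.16 ± 0.15 within runs. Of 10 listed genes 7 were measured. Of these 7, 2 were higher over all mice and 5 within runs, against 11.4% and 2.08% of named genes, and the median was 0.20 and 0.74. The 3 added within runs, chosen after their values were seen, were Csrp3, Ankrd2 and Fhl2. Csrp3 differed by 0.23 ± 0.15 over all mice and by 0.95 ± 0.18 within runs (limma adjusted p = 0.000113), and by 0.20 ± 0.22 outside the rich runs, where it was not called. Fhl1 was lower over all mice (-0.24 ± 0.09) and was not called within runs (0.16 ± 0.09).

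Of the targets of CREB and exercise, 4 of 6 were higher over all mice and 3 within runs, where 11.4% and 2.08% of named genes were, with medians of 0.21 and 0.30. The 4 were Ppargc1a (0.40 ± 0.11), Pde4b (0.37 ± 0.08), Crem (0.24 ± 0.06) and Per1. Within runs Pde4b (0.36 ± 0.10), Crem (0.27 ± 0.08) and Nfil3 (0.33 ± 0.10) were called, and Ppargc1a was not (0.39 ± 0.12, limma adjusted p = 0.0541). Outside the rich runs Ppargc1a differed by 0.80 ± 0.19 and was called. Of 7 targets of p53, 1 was higher over all mice, near the 11.4% of named genes. It was the cell cycle inhibitor gene Cdkn1a, at 0.44 ± 0.11. Cdkn1a was also the 1 target called within runs (0.56 ± 0.14), where 2.08% of named genes were higher. Outside the rich runs 2 of the 7 targets were called, Cdkn1a (0.74 ± 0.20) and Trp53inp1 (0.58 ± 0.19), against 3.75% of named genes. Of 12 genes of the glucocorticoid and fasting response, 4 were higher and 1 lower over all mice, where 11.4% and 16.1% of named genes were, and 2 were higher within runs, against 2.08%. Irs2 was the largest of these 4, at 0.32 ± 0.06 over all mice and 0.61 ± 0.12 outside the rich runs. Genes off all lists that were higher in all 4 comparisons included the sphingosine kinase gene Sphk1 (1.05 ± 0.10), the kinase gene Map3k8 (0.93 ± 0.09), the actin regulator gene Enah (0.79 ± 0.09), the acute-phase gene Saa2 (1.01 ± 0.16) and the thrombomodulin gene Thbd (0.79 ± 0.08), which were chosen after their values were seen.

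Tendon genes were higher in the high-Egr1 mice over all mice and were not called within runs. Over all mice 7 of 8 measured were higher, against 11.4% of named genes, with a median of 1.28. They included Kera, a small proteoglycan of tendon (1.89 ± 0.23), Chad (1.68 ± 0.19), Fmod (1.42 ± 0.18), the tenocyte protein gene Tnmd (1.33 ± 0.18) and Comp (1.23 ± 0.16). Within runs none of the 8 was called, where 2.08% of named genes were higher, and the median of the 8 was 0.20. Outside the rich runs 3 were called, against 3.75% of named genes, namely Chad (1.19 ± 0.28), Fmod (0.84 ± 0.25) and Col11a1 (0.56 ± 0.14), and the median was 0.58. In numbers 271 to 290, Kera stood at 2.24 ± 0.43 (SD, n = 11) in the high and 2.34 ± 0.28 (SD, n = 5) in the low mice, against -1.20 ± 0.95 in the 157 low mice outside the rich runs and numbers 51 to 70. Kera was thus high in both groups of that run. The tendon and joint lubricant gene Prg4 (1.62 ± 0.17 over all mice, 0.76 ± 0.17 within runs) and the homeobox gene En1 (1.50 ± 0.14 and 0.59 ± 0.12) were called in both. Here and for every cell type marker, fewer cells of a type and less RNA per cell cannot be told apart in whole tissue.

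Slow muscle fibre genes went the other way. Over all mice 8 of 9 measured were lower, against 16.1% of named genes, with a median of -0.66, and the slow myosin gene Myh7 ranged from -5.91 to 1.25 in the high mice, median -1.68, and from -5.93 to 0.80 in the low mice, median -0.22. Its difference was -1.24 ± 0.28, that of the slow troponin genes Tnnt1 and Tnnc1 -1.22 ± 0.25 and -1.29 ± 0.24. Within runs all 3 changed sign, to 0.55 ± 0.22, 0.47 ± 0.20 and 0.42 ± 0.19, and none of them was called. Tnni1 was the 1 of 9 called higher within runs (0.39 ± 0.12), where 2.08% of named genes were. Outside the rich runs Myh7 (0.58 ± 0.17), Tpm3 (0.33 ± 0.08) and Atp2a2 (0.79 ± 0.19) were called higher, against 3.75% of named genes. Numbers 51 to 70 had the lowest Myh7 of the runs compared, -4.60 ± 1.27 in 14 low-Egr1 mice, and held no high-Egr1 mouse. With scores of slow fibre, tendon and 3 other cell types as covariates, 34 of the 65 immediate early genes were higher, against 1.46% of named genes. The part of cell content in the differences was not tested.

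Among genes whose difference was also below 0 within runs, the 12 furthest below 0 over all mice were Irx5 (-1.25 ± 0.15) and Osr2 (-0.92 ± 0.11), a pair of transcription factor genes, Car3, the carbonic anhydrase of slow muscle (-0.59 ± 0.12), Tinag, Crip3, Tmem9, Lrrn1, Meis2, Amy1, Amhr2, Krt15 and Mmp3, the last 9 between -0.56 and -0.41. None of the 12 was called within runs, where 0.559% of named genes were called lower. Outside the rich runs 4 were called lower, against 3.5% of named genes. They were Osr2 (-0.48 ± 0.14), Tinag (-0.55 ± 0.18), Tmem9 (-0.52 ± 0.15) and Meis2 (-0.23 ± 0.07). Irx5 ranged from -2.67 to 0.65 in the high mice and from -2.80 to 1.39 in the low mice, and its difference had no single sign across runs. In numbers 271 to 290 Irx5 stood at -1.69 ± 0.50 (SD, n = 11) in the high and -2.20 ± 0.55 (SD, n = 5) in the low mice. In numbers 291 to 310 Irx5 was -2.11 ± 0.30 (SD, n = 9) and -1.87 ± 0.40 (SD, n = 8), in 71 to 90 the 12 high mice and the 2 low mice had a mean difference of -1.02, and outside the rich runs -0.10 ± 0.50 (SD, n = 11) and 0.21 ± 0.47 (SD, n = 157). Over all named genes, 89 (0.766%) were called higher and 14 (0.12%) lower by at least 0.5 over all mice. Within runs these were 60 (0.516%) and 1 (0.00861%), outside the rich runs 148 (1.27%) and 9 (0.0774%), and in the 3 rich runs 65 (0.559%) and 0.

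**Figure D4:**
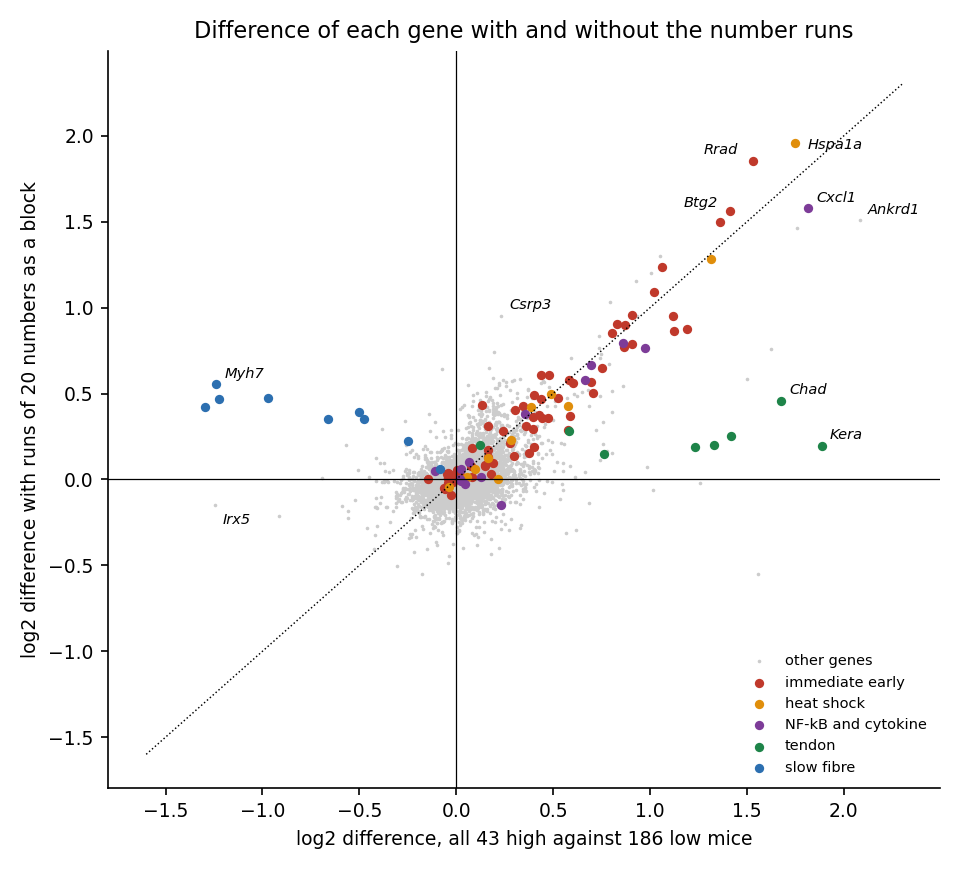
Log2 difference of high minus low Egr1 mice for each named gene, over all 43 high and 186 low mice (x axis) and with runs of 20 mouse numbers as a block (y axis); the dotted line marks equal values. Immediate early genes (red), heat shock genes (orange) and Cxcl1 lie near the line, tendon genes (green) fall toward 0 when runs are compared within, and slow fibre genes (blue) cross from below 0 to above it.

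High-Egr1 mice did not all have the same genes at 2-fold or more above the pool. Of 6 immediate early genes (Btg2, Atf3, Rrad, Socs3, Egr2 and Fos, chosen after their values were seen), 16 of the 43 high mice had at least 4 at 2-fold or more above the pool, 8 had all 6 and 8 had none. No low mouse and no mouse between had 4 or more. The median Egr1 was 2.37 in the 16 mice and 1.66 in the 8 with none, as log2 ratios. The lowest Egr1 among the 16 was 1.42, so the levels overlapped. The 16 thus also tended to have more Egr1, and the part of Egr1 level in these counts at a fixed limit was not tested. None of the 16 was in numbers 71 to 90, 6 were in 271 to 290, 6 in 291 to 310 and 4 elsewhere. In the high mice of 71 to 90 the means of Btg2, Atf3, Rrad and Socs3 were 0.07, 0.15, -0.12 and 0.20. The count by run thus depends on which genes were chosen and is no test of a difference between runs. Hspa1a was at least 2-fold above the pool in 15 of these 16 mice, in 12 of the other 27 high mice and in 8 low mice. Cxcl1 was at that level in 13 of the 16, in 15 of the other 27 and in 1 low mouse. The mouse with the highest Egr1, number 281, also ranked first of all 285 for Btg2, Atf3, Fos, Ccn1, Ier2, Hspa1a and Dnajb1.

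The high mice of numbers 71 to 90 had a mean Egr1 of 1.73 ± 0.43 (SD, n = 12), against 2.06 ± 0.83 in numbers 271 to 290 and 1.56 ± 0.34 in the 11 high mice outside the rich runs. Their means were 0.81 ± 0.34 for Ier2, 0.57 ± 0.35 for Fos, 0.79 ± 0.56 for Egr2 and 1.53 ± 0.63 for Cxcl1, against 0.77 ± 0.43, 0.90 ± 0.64, 1.19 ± 0.45 and 1.06 ± 0.95 in the 11 high mice of numbers 271 to 290. For other genes the runs stood apart. Rrad was -0.12 ± 0.29 against 1.88 ± 1.12, Atf3 0.15 ± 0.25 against 1.84 ± 0.75, Hspa1a -0.07 ± 0.59 against 1.98 ± 1.05 and Ankrd1 0.01 ± 0.97 against 1.97 ± 1.26. The high mice of numbers 291 to 310 had still larger means for Rrad (3.05, n = 9) and Ankrd1 (3.37 ± 1.21).

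Since numbers 71 to 90 held 2 low mice, the difference between the runs was tested on slopes over all mice in them, with limma, in a comparison added after the data were seen. A slope is the change of a gene, in log2 units, for each log2 unit of Egr1. In the 18 mice of numbers 71 to 90, 2 genes had a slope past the threshold, Ier2 (0.50 ± 0.05, adjusted p = 0.000279) and Cxcl1 (0.78 ± 0.11, adjusted p = 0.0127), so that 1 of the 65 immediate early genes was called, against 0.0172% of named genes. Unadjusted p was under 0.05 there, in either direction, for 542 of the 11621 named genes and for 13 of the 65 immediate early genes. In the 40 mice of numbers 271 to 310, 34 of the 65 had a positive slope past the threshold, against 2.37% of named genes. In the 209 mice outside these runs and 51 to 70, 35 did, against 12.7%. Negative slopes also passed in these 209 mice, for 2379 of the 11621 named genes. Those on the list were Egr3, Fosl2, Klf5, Zfp36l2, Spred1, Lif and Pim1.

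The slopes themselves differed between the runs for 46 named genes. For 45 of them the slope was more positive in numbers 271 to 310, and 4 of these were immediate early genes, against 0.387% of named genes. A more positive slope was not always a steeper rise. The slope of Mmp3, for example, was -0.55 ± 0.14 in 71 to 90 and 0.04 ± 0.05 in 271 to 310. Rrad rose by 0.99 ± 0.05 per unit of Egr1 in 271 to 310 and had a slope of -0.07 ± 0.09 in 71 to 90, a difference of 1.06 ± 0.12 (limma adjusted p = 1.58e-07). Fosl1 had slopes of 0.69 ± 0.04 and -0.10 ± 0.09 (limma adjusted p of the difference 5.64e-05), and Atf3 of 0.74 ± 0.04 and 0.13 ± 0.07 (limma adjusted p of the difference 0.00156). Ccn2 was the fourth. For Ier2, Fos and Egr2 the differences were -0.14 ± 0.06, 0.08 ± 0.08 and 0.01 ± 0.12, and none passed. Those of Hspa1a (0.62 ± 0.17, limma adjusted p = 0.103) and Socs3 (0.47 ± 0.12, limma adjusted p = 0.0976) did not pass either. Egr1 reached 3.57 in numbers 271 to 310 and 2.53 in numbers 71 to 90. With the mice of 271 to 310 kept to that range, 34 in all, 16 genes differed, among them Rrad (0.97 ± 0.13), Fosl1 (0.70 ± 0.11) and Atf3 (0.64 ± 0.12), and Ccn2 (0.54 ± 0.14) no longer passed.

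**Figure D5:**
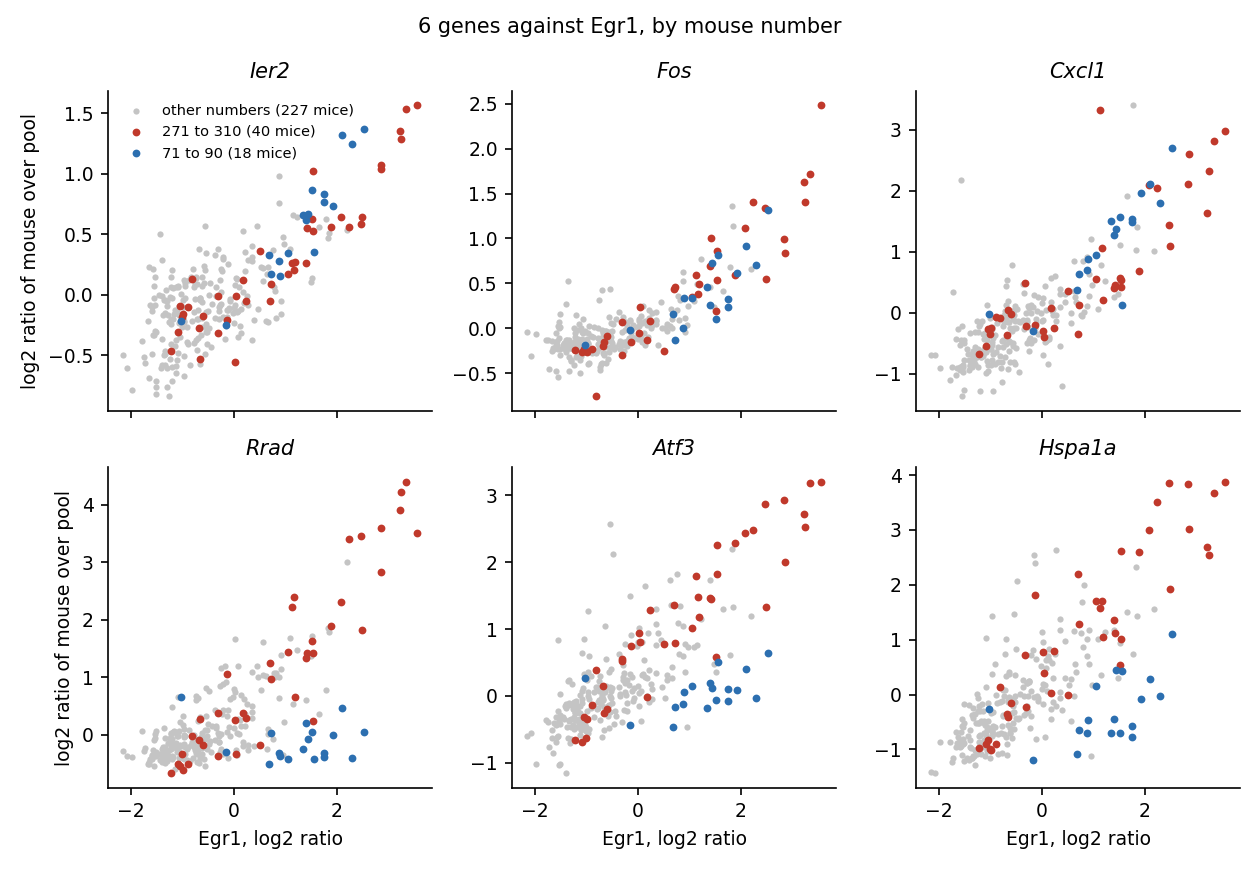
Log2 ratio of mouse over pool of 6 genes (y axes) against Egr1 (x axes) in each mouse, with the 18 mice of numbers 71 to 90 in blue, the 40 mice of 271 to 310 in red and the other 227 in grey. Ier2 and Cxcl1 climb with Egr1 in both runs, with slopes of 0.50 and 0.78 in 71 to 90, while Rrad, with slopes of 0.99 in the red and -0.07 in the blue mice, and Atf3 climb in the red mice and stay low in the blue ones.

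Among the 56 mice between the limits, which took no part in the comparison of groups, no gene had a slope on Egr1 past the threshold in limma, while unadjusted p was under 0.05 for 673. The smallest adjusted p was 0.121, that of Cxcl1 (0.82 ± 0.16). Of the 65 immediate early genes 48 had a positive slope, against 47.4% of named genes, and 8 had an unadjusted p under 0.05, against 5.79% in either direction and 2.69% with a positive slope. The 8 included Il6 (0.55 ± 0.16) and Fos (0.24 ± 0.07). The difference of high and low mice was also set against the Eif2s3y class and against lying in numbers 51 to 90 or 271 to 310. No gene had an interaction past the threshold in limma, with smallest adjusted p of 0.331 and 0.0805, and unadjusted p was under 0.05 for 530 (4.56%) and 882 (7.59%) genes. The number class joins runs that differ from each other. For Rrad the difference of high and low mice was -0.31 in 71 to 90, 2.37 in 271 to 290, 3.01 in 291 to 310 and 1.47 outside the class. The interaction with number therefore cannot show a difference between the joined runs.

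Array spread moved with the groups in part: the median SD of log2 values within an array was 0.31 in high and 0.29 in low mice, and 3 high and 7 low mice were among the 12 arrays of outlying spread. With arrays scaled to a common SD, 88 of 91 genes named here kept their direction and their side of the threshold. Egr1 and the other genes were read on the same array of the same RNA, and how the tissue was handled or how long it took to freeze is not in the labels, so its part in the differences was not tested.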

How the data were processed

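Each of 285 arrays compared muscle RNA of 1 mouse (Cy3) with a pool of all samples (Cy5), per the labels. The authors deposited 1 value per probe and array, read here as a log10 ratio of mouse over pool. Its base, its sign and its normalization, and the tools used, are not given in the sources used here. That sign was kept because Eif2s3y then had a mean linear ratio of 0.796, near the 1 that a pool of all mice implies, against 23.2 with the sign turned. Under another base every log2 value would be scaled by one factor, while tests would stay. Folds would change by a power and not by one factor, and counts at a set fold or log2 limit could change. Under the other sign every ratio to the pool would turn, and the mice with the most Egr1 here would have the least. The limits would then pick other groups. Slopes on Egr1 would keep their sign, so a gene that rises with Egr1 here would still do so. Array pairs correlated down to -0.745, with 2.48% under -0.3, over all probes; the dyes are stated. Array medians lay between -0.0222 and 0.0173 on the deposited log10 scale.

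Probes measured on at least 80% of arrays (23510 of 23560) were kept. Of all deposited values 0.0972% were missing, and those of kept probes were set to the probe mean. Probes of a gene were averaged and converted to log2. Of the probes 13653 had 1 symbol, 48 several and 9859 none, which gave 11622 named genes and 9890 unnamed probes. High and low mice were compared with limma 3.58.1 in R 4.3.3, tested on simulated data, with Benjamini-Hochberg adjustment over all features except Egr1. Each mouse gave 1 array, so p-values measure spread between mice, and the number of arrays limits precision.

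The members, lists and tests were chosen with earlier results of these data known. Genes named were Btg2, immediate early genes past the threshold (12 with values), the 12 highest and 12 lowest others with the same sign within runs, and up to 3 per list. List members that missed the threshold appear with values only. Promoters are RefSeq's. Alternatives covered probe choice, filters, scaling, runs, a spline of mouse number, cell type scores, Eif2s3y class, the first principal component and a stricter limit.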

Additional observations from a re-analysis of the deposited data

Results flagged for a closer look

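The slope of a gene on Egr1 differed between mouse numbers 271 to 310 (40 mice) and 71 to 90 (18 mice), by limma's test of the difference with adjusted p under 0.05, for 10 genes the text names. The difference, 271 to 310 minus 71 to 90 in log2 units per log2 unit of Egr1, was 1.06 for Rrad, 0.61 for Atf3, 0.59 for Ccn2 and 0.79 for Fosl1 among the immediate early genes. It was 1.07 for Ankrd1, 0.51 for Pde4b, 0.64 for Sphk1, 0.65 for Map3k8 and 0.67 for Enah. For Mmp3, at 0.59, the slope was -0.55 ± 0.14 in 71 to 90 and 0.04 ± 0.05 in 271 to 310, neither past the threshold on its own. With Egr1 kept to the range of 71 to 90, Rrad, Atf3, Fosl1, Sphk1, Map3k8 and Enah still passed, and Ccn2, Ankrd1, Pde4b and Mmp3 did not (limma adjusted p = 0.131, 0.174, 0.359 and 0.166).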

How the results depend on the processing

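Counts of named genes moved with the handling of mouse number and with cell type scores. Against 1320 higher and 1871 lower genes over all mice, there were 242 and 65 with runs of 20 numbers as a block, 233 and 70 with a spline of mouse number, 436 and 407 outside numbers 51 to 90 and 271 to 310, 91 and 11 in the 3 rich runs alone, 170 and 89 with cell type scores, 465 and 374 with the high group set at 0.5 or more (21 mice), and 2004 and 2914 for a slope on Egr1 over all mice. The first principal component as a covariate left 806 lower. The 44 higher immediate early genes became 28 outside the runs and 25 in the 3 rich runs. Of 91 named genes, 50 kept direction and side of the threshold with the block, 34 lost the call, 5 reversed and 2 gained it. Reversals with the block, outside the runs and in the 3 rich runs were, in that order, 0.55, 0.58 and 0.63 for Myh7, 0.47, 0.45 and 0.42 for Tnnt1, 0.42, 0.38 and 0.31 for Tnnc1, and 0.16, 0.12 and 0.26 for Fhl1. Fhl1 also turned to 0.0104 with cell type scores. Those scores turned Kera to -0.0373, Fmod to -0.0475, Tnmd to -0.16 and Comp to -0.0308. These genes are members of the tendon score itself. A fit with that score takes out much of their difference by construction and cannot test it. Outside the runs Car3 turned to 0.0875 and Lrrn1 to 0.0030. Egr3 turned to 0.00374 with the block and 0.00911 with the spline. Slopes that differed between numbers 71 to 90 and 271 to 310 numbered 46, 77 with arrays scaled to a common SD and 16 with Egr1 kept to the range of 71 to 90. The cause of these changes was not tested. No paired analysis was possible because all mice form 1 labelled group and their numbers pair no samples. The files hold no signal intensities, so signal over background is unknown.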
